A study of Mus musculus with 14 samples.

Results

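The mRNAs of the clustered, replication-dependent histone genes were followed in primary mouse cortical neuron cultures treated for 1 h. Members were all rows whose symbol starts with Hist1h, Hist2h, Hist3h or Hist4h, which gave 70 of 45802 rows. The 70 comprise 6 H1, 20 H2A, 19 H2B, 12 H3 and 13 H4 genes, with 56 in cluster 1 on chromosome 13, 10 in cluster 2 on chromosome 3, 3 in cluster 3 on chromosome 11 and 1 in cluster 4 on chromosome 6 (GRCm38). A value was present in at least 1 library for 65 rows and in all 14 libraries for 19. The symbol rule also takes in 3 pseudogenes (Hist3h2bb-ps, Hist1h2aj and Hist1h2al), and it takes in testis genes such as the linker histone Hist1h1t.

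Cultures came from wild-type C57BL/6 mice and were treated after 12 days in vitro. The control received 1% DMSO (2 libraries, replicates 2 and 3). There were 3 libraries in each treated group, replicates 1 to 3. Replicate 1 of each treated group thus has no control of the same number. An effect of that replicate can enter any difference from DMSO. Bicuculline, which blocks inhibitory GABA-A receptors and so increases firing, was used at 20 µM. NMP peptides, the products of a proteasome in the plasma membrane of neurons, were used at 4% (v/v). PK-cleaved NMP peptides, digested by proteinase K, were also used at 4%. NMP peptides plus APV combined 4% peptides with 100 µM of the NMDA receptor antagonist APV. Because the labels state DMSO for the control alone, treated cultures may have had a different solvent. A cortical culture is a mixture of cells: markers of neurons (10 of 10), astrocytes (10 of 10), neural progenitors (6 of 6) and the oligodendrocyte lineage (7 of 7) passed the filter on low values, while 0 of 6 microglial and 0 of 4 endothelial and mural markers did. In such bulk RNA, fewer cells of a type and less RNA per cell cannot be told apart.

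Replication-dependent histone genes supply the core histones H2A, H2B, H3 and H4 and the linker histone H1 that package new DNA during S phase. Their genes lack introns as a rule, and their mRNAs normally end, without a poly(A) tail, just after a short stem-loop that the stem-loop binding protein Slbp holds. Some of the genes also give polyadenylated transcripts, and cells that no longer divide rely largely on replication-independent variants such as H3.3. The libraries were made from ribosome-depleted total RNA, without selection for poly(A) tails.

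The stem-loop is shown for the tested members that carry it, because it marks where the replication-dependent 3′ end is normally formed. Each line gives 4 bases before the loop, the 16 bases of the stem-loop in capitals and 6 bases after it, from GENCODE transcripts of GRCm38.
Hist3h2ba: caaaGGCTCTTTTCAGAGCCaccttc
Hist3h2a: caaaGGCTCTTTTCAGAGCCacccac
Hist2h2aa1: aaaaGGCTCTTTTCAGAGCCacccac
Hist1h1c: aaaaGGCTCTTTTCAGAGCCaccact
Hist1h2ao: aaaaGGCTCTTTTCAGAGCCatccac
Hist2h3c2: caaaGGCTCTTTTCAGAGCCaccaca
Hist1h4h: caaaGGCCCTTTTCAGGGCCgcccac
Hist1h4i: taaaGGCCCTTTTTAGGGCCaccaca

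A stem-loop of 16 bases was found after the stop codon in annotated transcripts of 44 of the 70 genes, among them 8 of the 10 tested genes. The exceptions among the tested were the H2B genes Hist2h2be and Hist1h2bc, whose longest annotated transcripts hold no match. In 13 genes, all untested, the annotated transcript ended at the stop codon, so no match was possible. Nor was one possible in Hist1h2af and Hist1h2ah, annotated for 1 and 2 bases past it, or in the pseudogenes, which have no annotated stop codon. The form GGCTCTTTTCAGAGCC was found in 26 genes and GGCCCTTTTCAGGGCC in 7. The loop began 21 to 58 bases (median 31) after the stop codon. The annotation ran on for more than 200 bases past the loop in 18 of the 44. For Hist3h2a it ran on for 1643 bases and for Hist1h1c for 840, against 35 for Hist2h2aa1 and 31 for Hist1h2ao. The deposited values are per gene, so use of the loop or of a later end was not measured.

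The sequence just before the transcription start is shown for 3 of the higher members because it holds matches to promoter elements counted below. Of these 3, Hist3h2ba alone matched TATAAA. Capitals mark matches on either strand to the TATA box TATAAA, the element CCAAT, the octamer ATTTGCAT and the H1 box AAACACA. The sequences are from RefSeq promoters of GRCm38.p6 and cover the 130 bases before the start.
Hist3h2ba, chr11:58948781-58948910, + strand: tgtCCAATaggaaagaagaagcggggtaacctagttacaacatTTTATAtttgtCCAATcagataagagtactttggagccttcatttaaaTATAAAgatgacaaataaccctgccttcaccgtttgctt
Hist3h2a, chr11:58954555-58954684, + strand: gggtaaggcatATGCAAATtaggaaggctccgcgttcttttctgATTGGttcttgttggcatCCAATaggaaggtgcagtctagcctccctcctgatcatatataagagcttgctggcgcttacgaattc
Hist1h1c, chr13:23738677-23738806, + strand: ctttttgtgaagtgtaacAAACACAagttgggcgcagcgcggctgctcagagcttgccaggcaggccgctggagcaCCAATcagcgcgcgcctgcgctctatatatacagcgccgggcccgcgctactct

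CCAAT, the core of a common promoter element, was looked for from 250 bases before to 50 bases after the start. A gene counted when any of its RefSeq promoters matched. CCAAT was present in 85.5% of the 62 histone genes with a RefSeq promoter, against 41.1% of all 27025 genes with one. All H1, H2A, H2B and H3 genes among the 62 held it, and 3 of 12 H4 genes did. TATAAA was present in 56.5% of the histone genes against 15.7% of all. Of the 8 tested members with a RefSeq promoter, 6 held CCAAT, 3 TATAAA, 1 the octamer and 1 the H1 box. The octamer was found in 7 of 18 H2A and 7 of 16 H2B genes and in 0 of the other classes, against 1.97% of all genes. Some H2A and H2B neighbours lie on opposite strands with overlapping promoters, so a match can count for both genes. Hist1h2aa and Hist1h2ba, Hist1h2ae and Hist1h2bg, and Hist1h2ah and Hist1h2bk each share an octamer. The class counts are thus not independent. The H1 box was found in 5 of 6 H1 genes against 8.22% of all. A match describes the letters only.

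A few genes carried most of the signal. Hist3h2ba, an H2B gene of cluster 3, was the highest member, and its deposited log2 level was 6.09 on average, above 92.1% of the 10877 tested genes. It lies on chromosome 11 from 58948920 to 58949533 (GENCODE, GRCm38, + strand). Its neighbour Hist3h2a, an H2A gene at 58954685 to 58956830 on the same strand, averaged 5.49. Hist1h2bc (H2B) averaged 4.72, Hist2h2aa1 (H2A) 4.70 and Hist1h1c, which encodes a linker histone, 3.40. Hist3h2ba was above Hist3h2a in 13 of 14 libraries, and Hist3h2a was above Hist1h2bc in 14 of 14. Neighbours in this order that were not separated were Hist1h2bc and Hist2h2aa1 (the first higher in 8 of 14 libraries), Hist1h1c and Hist1h2ao (7 of 14) and Hist2h2be and Hist1h4i (8 of 14).

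**Figure D1:**
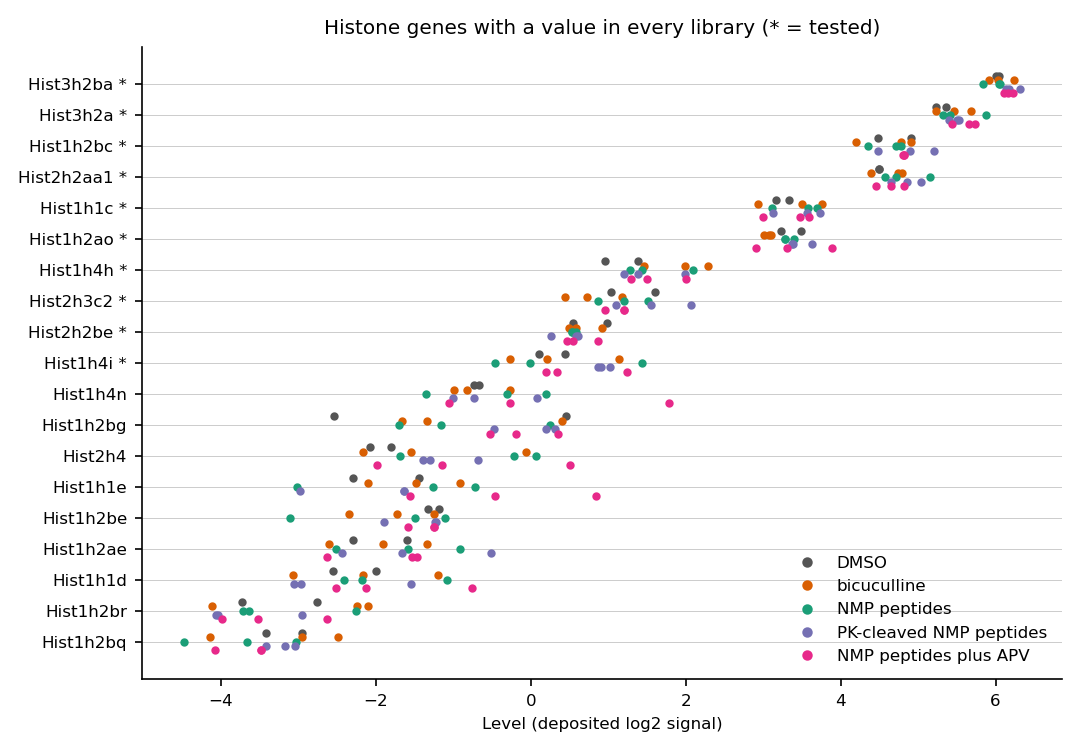
Deposited log2 level (x axis) of the 19 histone genes with a value in every library (y axis, ordered by mean), with 1 point for each library coloured by group; stars mark the 10 tested genes. Hist3h2ba lies between 5.84 and 6.32 in all libraries, and the 9 untested genes lie mostly below 0.

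On the linear scale, with missing values as 0, the 70 rows summed to between 190 and 247 per library. The first 3 genes gave 62.0% to 71.2% of that sum and the first 5 gave 78.4% to 86.8%. By class, H2B took 38.1% to 51.6%, H2A 35.8% to 47.8%, H1 4.43% to 6.74%, H4 2.88% to 5.88% and H3 1.62% to 3.81%. The medians of these shares were lowest for H3 (2.96%) and H4 (3.62%), below that of H1 (5.70%). As background, a nucleosome holds H3 and H4 in equal number with H2A and H2B.

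The other 60 rows summed to 3.97% to 12.3% of the histone signal. Values multiplied by gene length fell on common steps: for the untested genes with a RefSeq span under 1000 bases, 173 of 453 values (38.2%) lay within 1.2 times the smallest product of their library and 415 (91.6%) under 5 times it. Between 1.2 and 1.4 times there were 2, between 1.4 and 1.6 times there were 40 and between 1.9 and 2.2 times there were 67. On the same scale of multiples of the smallest product, the median over libraries was 354 for Hist3h2ba, 252 for Hist3h2a, 159 for Hist2h2aa1, 92.1 for Hist1h1c, 61.7 for Hist1h2ao, 16.5 for Hist2h3c2, 13.7 for Hist1h4h and 5.88 for Hist1h4i. Over the libraries Hist1h4i ran from 3.54 to 11.3 times, so it too reached below 5 times. The tested genes Hist1h2bc and Hist2h2be, with RefSeq spans of 8282 and 2667 bases, were not put on this scale. The read depth behind these steps is unknown.

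**Figure D2:**
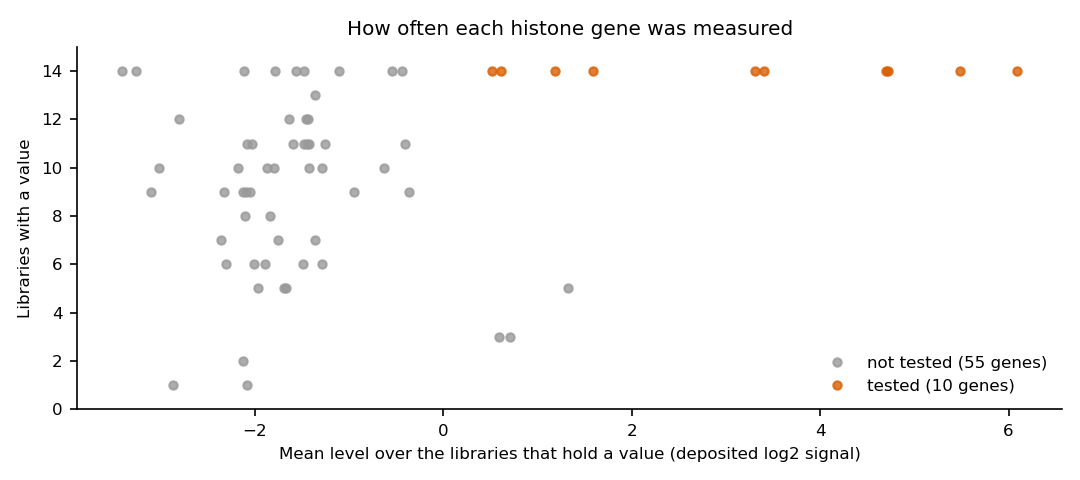
Mean deposited log2 level over the libraries that hold a value (x axis) against the number of libraries with a value (y axis), with 1 point for each of the 65 histone genes that have any. The 10 tested genes have values in all 14 libraries; 46 genes have values in some libraries only.

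Of the 6 H1 genes, Hist1h1c alone was tested. The next, Hist1h1e, had levels from -3.01 to 0.84, and Hist1h1t, the testis form, had a value in 1 library. The only H3 gene with a value in every library was Hist2h3c2; Hist1h3d, the next by the ranking used for the filter, had values in 13. No value was present for Hist3h2bb-ps, Hist1h2aj, Hist1h4m, Hist1h2aa or Hist1h2al. Such rows are not shown to be without RNA.

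Several members share sequence with another annotated gene, counted in 100-base windows on either strand. Of the windows of Hist2h2aa1 and of Hist2h2aa2, 0% were found in no other annotated gene. The gene sharing most was Gm20633 for Hist2h2aa1 (487 of 487 windows) and Gm20632 for Hist2h2aa2 (429 of 429). Hist2h3c1 also had 0%, against 38.4% for Hist2h3c2, and both shared most with Gm20634. Hist1h2ao shared 353 of its 381 windows with Hist1h2ap. The histone copies taken as partners had values in few libraries. Hist2h2aa2 had values in 3, Hist2h3c1 in 5 and Hist1h2ap in 3, at mean log2 levels of 0.70, 1.32 and 0.59. Adding the partner raised Hist2h2aa1 by at most 0.11 and Hist1h2ao by at most 0.30, but Hist2h3c2 by up to 1.78 on the log2 scale. Levels of these pairs are therefore uncertain as single genes. Hist2h2be, at 100%, was the tested gene with all windows its own, and Hist3h2ba had 95.1%. Hist3h2a had 70.2% and shared 610 windows with Trim17, whose annotated transcripts hold the same sequence.

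One library stood apart in the low members. NMP peptides plus APV replicate 2 held a value for 56 of the 70 rows, against 38 to 51 in the others, and held the maximum of 20 members, against at most 8 elsewhere. Its 60 untested rows summed to 29.7 on the linear scale, against 18.9 for the next library and a median of 14.4. The same library had the fewest features with a value, 15824 in a range up to 16231. Group means of the untested sum were 13.7 ± 1.84 (SD, n = 2) in DMSO, 13.2 ± 4.27 (n = 3) with bicuculline, 16.1 ± 2.95 (n = 3) with NMP peptides, 13.5 ± 0.67 (n = 3) with PK-cleaved NMP peptides and 19.1 ± 10.4 (n = 3) with NMP peptides plus APV. Without replicate 2 the last mean was 13.9, and the range of that group, 8.85 to 29.7, overlapped that of each other group.

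Genes of S phase and mitosis did not peak in the same library. The median log2 level of 30 such genes was highest in NMP peptides plus APV replicate 3 (2.28) and DMSO replicate 3 (2.24), where the untested histone rows summed to 8.85 and 12.4. In NMP peptides plus APV replicate 2 that median was 1.88, in a range of 1.68 to 2.28. In that replicate the medians of the neural progenitor markers (2.29) and oligodendrocyte lineage markers (2.13) were the lowest of all libraries. Its astrocyte median, 4.93, was second to the highest, 4.94, and its neuron median was 6.30 in a range of 5.94 to 6.57. The astrocyte marker Gfap varied more than that astrocyte median, from 2.15 to 4.18, and was 2.76 in this library. Gfap was highest in bicuculline replicate 2 (4.18), NMP peptides replicate 3 (4.15) and DMSO replicate 2 (4.13). There the tested histone genes summed to 175, 179 and 178, the lowest sums. In PK-cleaved NMP peptides replicate 3 Gfap was 3.97 and the sum was 192, near the median of 192. The part of cell makeup in the histone values was not tested.

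**Figure D3:**
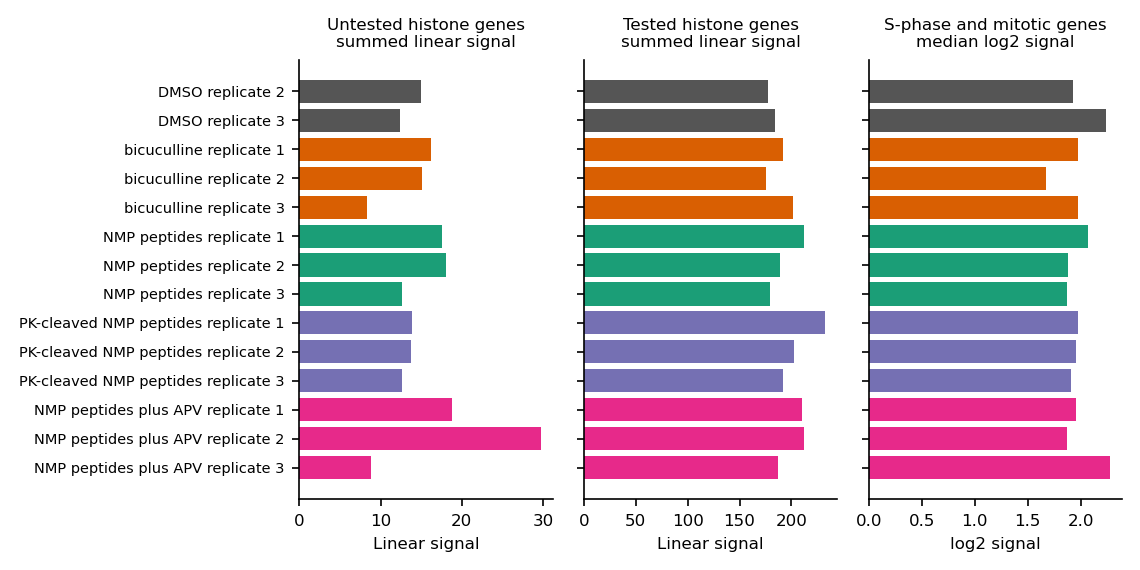
Summed linear signal of the 60 untested (left) and 10 tested (middle) histone genes and median log2 signal of the S-phase and mitotic genes (right), with 1 bar for each library coloured by group. NMP peptides plus APV replicate 2 has the longest bar on the left (29.7) but not on the right.

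Treatment was compared in 7 pairs of groups with limma over all 10877 tested genes, with p-values adjusted by Benjamini-Hochberg and called under 0.05. No histone gene was called in any of them. The test over all 5 groups at once called 0 of 10 histone genes, beside 1.65% of all tested genes. An unadjusted p under 0.05 was found for 0 of the 10, beside 1031 of all 10877 tested genes. The members varied more within groups than most genes: their median within-group SD was 0.27 on the log2 scale, against 0.13 over all tested genes.

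Bicuculline against DMSO asks whether raised network activity changed histone mRNA. Npas4 and Fos, named as the positive control, were higher with bicuculline by 4.33 and 3.38 on the log2 scale (limma adjusted p = 5.68e-06 and 1.82e-05). Of the histone genes limma called 0 of 10, beside 0.469% of all tested genes. Over all 10877 genes 342 had an unadjusted p under 0.05, and of the 10 members 1 did. That gene was Hist1h4h, an H4 gene of cluster 1 (chromosome 13, 23531050 to 23531519), at log2 levels of 1.39 and 0.96 in DMSO and 1.99, 1.46 and 2.29 with bicuculline. All bicuculline libraries lay above both DMSO libraries. The log2 difference was 0.74 (SE 0.30, 95% interval 0.09 to 1.39), with an unadjusted limma p of 0.0283 and an adjusted p of 0.996. Hist1h2ao, an H2A gene, lay lower in all bicuculline libraries, at 3.10, 3.01 and 3.07 against 3.49 and 3.23, a log2 difference of -0.30 (limma adjusted p = 0.996). With the copy Hist1h2ap added, the groups overlapped (3.01 to 3.36 against 3.23 to 3.49) and the difference was -0.21. Without DMSO replicate 2 the difference of Hist1h2ao alone was -0.17. As listed, these 2 of 10 compare with 17.8% of all tested genes whose groups did not overlap. The median log2 difference of the 10 was 0.06, against -0.03 over all tested genes.

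NMP peptides against DMSO asks whether the peptides changed histone mRNA. limma called 0 of 10, beside 0.0184% of all, and 0 had an unadjusted p under 0.05, beside 220 of all 10877 genes. Hist2h2aa1 read 4.50 and 4.49 in DMSO and 5.16, 4.72 and 4.57 with NMP peptides. The groups did not overlap, which held for 1 of 10 members and 17.4% of all tested genes. Its log2 difference was 0.32 (SE 0.17, 95% interval -0.04 to 0.68, limma adjusted p = 0.971). Without NMP peptides replicate 1 the difference was 0.15. With its copy Hist2h2aa2 added it was 0.34, with an unadjusted limma p of 0.0499 and an adjusted p of 0.971. Hist2h3c2 with Hist2h3c1 added also gave groups that did not overlap, lower with NMP peptides by -0.72 (limma adjusted p = 0.971), whereas Hist2h3c2 alone overlapped. The median of the 10 was 0.01, against -0.04 over all.

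PK-cleaved NMP peptides against DMSO compares the cleaved preparation with the same control. limma called 0 of 10, beside 0% of all tested genes. An unadjusted p under 0.05 was found for 0 members, beside 114 of all 10877 genes. Groups did not overlap for 4 of 10 members, against 11% of all, and all 4 were higher with the cleaved peptides. Hist3h2ba read 6.32, 6.14 and 6.17 against 6.04 and 6.01 in DMSO, a log2 difference of 0.18 (SE 0.10). Hist2h2aa1 differed by 0.35, Hist3h2a by 0.18 and Hist1h4i by 0.66, the last with a 95% interval of -0.37 to 1.69. Without DMSO replicate 2 the difference of Hist3h2a was 0.11. The smallest unadjusted limma p was 0.0542, for Hist2h2aa1. The median of the 10 was 0.21, against -0.04 over all. The comparisons with DMSO share its 2 libraries.

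NMP peptides plus APV against DMSO had 0 of 10 members called by limma, beside 0.625% of all. An unadjusted p under 0.05 was found for 0 members, beside 1252 of all 10877 genes. Hist3h2a read 5.74, 5.66 and 5.43 with APV against 5.23 and 5.37, a log2 difference of 0.31 (SE 0.15, 95% interval -0.02 to 0.64, limma adjusted p = 0.457). Hist3h2ba differed by 0.14. The groups did not overlap for these 2 of 10 members, against 29.8% of all tested genes. The median of the 10 was 0.13, against -0.05 over all.

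NMP peptides against PK-cleaved NMP peptides tests whether intact peptides are needed. limma called 0 of 10, beside 0.0827% of all, and 1 had an unadjusted p under 0.05, beside 179 of all 10877 genes. Hist3h2ba read 5.84, 6.04 and 6.06 with NMP peptides and 6.32, 6.14 and 6.17 with the cleaved form. The intact-peptide libraries all lay lower, by -0.23 on the log2 scale (SE 0.09, 95% interval -0.41 to -0.04), with an unadjusted limma p of 0.0197 and an adjusted p of 1. It was the 1 of 10 members whose groups did not overlap, against 5.21% of all tested genes. The median of the 10 was -0.09, against 0.00 over all.

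NMP peptides against NMP peptides plus APV tests dependence on NMDA receptors. limma called 0 of 10, beside 1.43% of all, and 0 had an unadjusted p under 0.05, beside 1723 of all 10877 genes. Hist3h2ba was lower without APV by -0.18 (limma adjusted p = 0.327) and Hist1h2bc by -0.20 (limma adjusted p = 0.653). Without NMP peptides replicate 1 the first was -0.11, and without NMP peptides replicate 3 the second was -0.07. The groups of these 2 of 10 members did not overlap, against 21.8% of all tested genes. Bicuculline against NMP peptides likewise had 0 of 10 called by limma, beside 0.175% of all. An unadjusted p under 0.05 was found for 0 members, beside 231 of all 10877 genes. Hist1h2ao, lower with bicuculline by -0.26, was the 1 of 10 without overlap, against 4.7% of all. With Hist1h2ap added its groups overlapped (3.01 to 3.36 against 3.28 to 3.59), and the difference was -0.27. Hist2h3c2 had the smallest unadjusted limma p, 0.118, at a log2 difference of -0.41. That direction turned when the copy Hist2h3c1 was added: the summed level ran from 1.18 to 2.22 with bicuculline and from 0.86 to 1.52 with NMP peptides, a difference of 0.46 (SE 0.40, limma adjusted p = 1). Without bicuculline replicate 1 or NMP peptides replicate 1, the difference of Hist2h3c2 alone was -0.24 or -0.25.

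**Figure D4:**
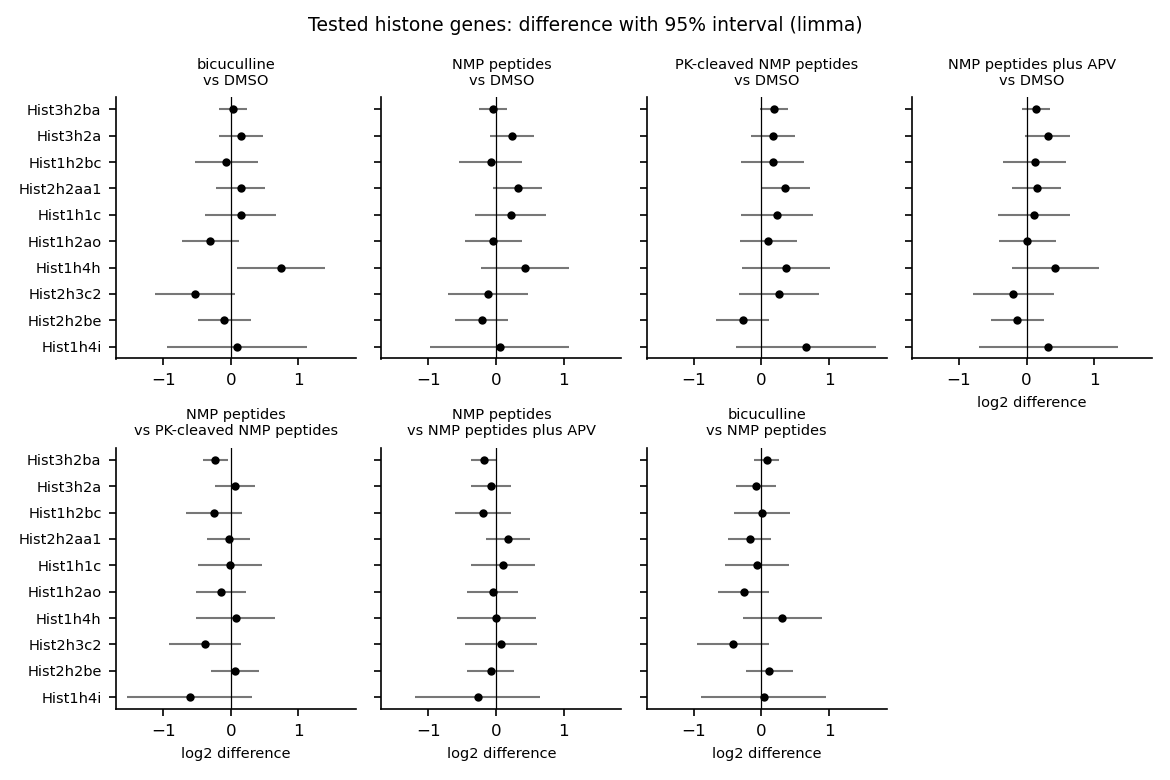
Log2 difference (x axis; first group minus second) with its 95% interval from limma for the 10 tested histone genes (y axis) in the 7 comparisons. All intervals hold 0 except those of Hist1h4h for bicuculline against DMSO (0.09 to 1.39) and Hist3h2ba in the comparison of intact with cleaved peptides (-0.41 to -0.04).

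The intervals leave room for changes of some size. The log2 interval of Hist3h2ba, bicuculline against DMSO, ran from -0.17 to 0.24, while that of Hist1h4i with the cleaved peptides reached 1.69. With the filter on low values left out, 53 to 58 histone rows entered each comparison and limma called 0. Over all features in those fits it called 0.257% in bicuculline, 0% in NMP peptides, 0% in PK-cleaved NMP peptides and 0.394% in the APV group when each was compared with DMSO. It called 0.0244% for intact against cleaved peptides, 0.746% for NMP peptides without against with APV and 0.0244% for bicuculline against NMP peptides.

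An unadjusted limma p under 0.05 was found in these fits for 6 of 53 histone rows (11.3%) with bicuculline against DMSO, beside 4.36% of all features. The share was 5 of 55 (9.09%, beside 3.67%) for NMP peptides and 5 of 53 (9.43%, beside 3.14%) for the cleaved peptides against DMSO. In the APV group against DMSO it was 8 of 57 (14.0%, beside 11.5%). For intact against cleaved peptides it was 6 of 54 (11.1%, beside 2.89%), and for bicuculline against NMP peptides 3 of 55 (5.45%, beside 3.35%). For NMP peptides without against with APV the members' share was lower, 3 of 58 (5.17%, beside 13.8%). The smallest p was that of Hist1h4b when the APV group was set against DMSO. That gene had a value in 1 of 2 DMSO libraries (log2 level -2.50). In the APV group it had values in 2 of 3 (-0.58 and -0.19). Its p-value is not given, because a single control library stands behind it. Missing values leave such rows, with 1 library in a group, among those counted in the shares. Most histone rows in these fits lie within a few steps of the smallest value, and the difference between the shares was not tested.

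Genes that act on histone mRNA were present in all groups. Slbp, which binds the stem-loop, averaged 4.13, and Lsm11, a part of the U7 particle that guides cleavage of the mRNA, averaged 4.73. Npat, the coactivator of histone gene transcription, averaged 1.15. Of 20 genes of histone mRNA transcription, processing and decay, 18 were tested and 0 rose or fell by limma in any comparison, with 0 to 1 at an unadjusted p under 0.05. Some replication-independent variants averaged higher than any member. H3f3a averaged 8.31 and H3f3b 7.69, both of which encode H3.3, and H2afz, which encodes H2A.Z, averaged 7.24. Of 11 such variants and of 13 tested histone chaperones, limma likewise called 0, with 0 to 1 and 0 to 2 at an unadjusted p under 0.05. Of 30 proliferation and S-phase genes 25 were tested. Among these limma called 0, with 0 to 3 at an unadjusted p under 0.05. Over all 10877 tested genes limma called 0 to 156 in a comparison, and 114 to 1723 had an unadjusted p under 0.05. Pcna, the replication clamp, averaged 5.90 and Top2a, a topoisomerase of dividing cells, 2.72.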

How the data were processed

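The authors deposited 1 score per gene and library, a quantile-normalised log2 signal, with dashes for missing values. The submitters' processing notes name GRCm38.p6. The aligner, the counter and the gene annotation are each not given in the sources used here. Ribosome-depleted total RNA was read from both ends for 100 bases, per the labels' protocols.

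For testing, the 40% of features with the lowest means were dropped, leaving 10877 genes. limma 3.58.1 (R 4.3.3) was fitted once to the 14 libraries, with group means and a variance trend. Adjustment was by Benjamini-Hochberg in each comparison, and the procedure was tested on simulated data. Biological replicates are stated, but not what was replicated, so a p-value reflects the spread of these libraries, which may be technical. Named genes were the 2 highest of each histone class, any called member and the smallest p of each comparison. The remaining tested members, those without overlap of groups among them, and a few untested ones were named after their values were seen. The members and lists were chosen with earlier results of these data known.

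Same-numbered libraries deviated together in NMP peptides and the PK-cleaved form, with correlations across genes of 0.510, 0.499 and 0.613. They were taken as paired, a property of the data that is not in the labels. No other comparison was taken as paired. The main fit, which gave the differences and p-values above, did not use this pairing. It entered only through the replicate block, an alternative applied to all 14 libraries. Between NMP peptides and DMSO the correlations of same-numbered libraries were -0.341 and -0.480, and between the cleaved form and DMSO -0.449 and -0.413. They were positive between bicuculline and DMSO (0.542 and 0.169) and between NMP peptides plus APV and DMSO (0.305 and 0.349). Between NMP peptides and NMP peptides plus APV they were -0.145, -0.210 and 0.133. Between bicuculline and NMP peptides they were -0.056, -0.221 and -0.450. The alternatives were no filter, a filter dropping 60%, centring each library on its median, a replicate block, a fit of the compared groups alone, omission of the variance trend, array weights, and omission of each library in turn. Summing near-identical pairs was chosen after seeing the data. Stem-loops and 100-base windows came from GENCODE transcripts and promoters from RefSeq. A list of 12 other RNAs without poly(A) tails had 0 values and was not used. Few non-coding rows held a value at all: 60 of 10096 long non-coding, 0 of 16 small nuclear and 1 of 124 small nucleolar RNA rows. Of protein-coding rows 17709 of 21231 did. The listed RNAs are therefore not shown to be absent from the libraries.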

Additional observations from a re-analysis of the deposited data

How the results depend on the processing

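Read depth is unknown, and quantile normalisation would hide a change in total RNA. The count of histone genes called was 0 under every alternative run. Among these were the replicate block (0 in each comparison) and leaving out 1 library (0 to 0). That block gives all groups the same shift for a replicate number. No fit paired the intact and cleaved peptide libraries alone, so that pairing was not tested by itself. The smallest adjusted p of a named gene over the alternatives was 0.142. Of the 14 gene differences given in size, 1 changed sign, that of Hist2h3c2 in bicuculline against NMP peptides when near-identical pairs were summed. The 7 medians moved by at most 0.20, and 5 of them changed sign under at least 1 alternative.

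Of 58 single-gene differences recomputed, 29, none called and the largest 0.41 in size, changed sign under at least 1 alternative, in 69 of 1255 values; the cause was not tested. Median centring gave Hist1h4h in NMP peptides against NMP peptides plus APV (-0.00809), Hist1h2bc in bicuculline against NMP peptides (-0.000987). The replicate block gave Hist1h4i in bicuculline against DMSO (-0.10), Hist1h4i in NMP peptides against DMSO (-0.14). Array weights gave Hist3h2ba in NMP peptides against DMSO (0.000994), Hist1h4i in NMP peptides against DMSO (-0.33), Hist2h3c2 in PK-cleaved NMP peptides against DMSO (-0.017), Hist1h2bc in PK-cleaved NMP peptides against DMSO (-0.048), Hist3h2a in NMP peptides against PK-cleaved NMP peptides (-0.035), Hist1h1c in NMP peptides against PK-cleaved NMP peptides (0.054), Hist1h4h in NMP peptides against NMP peptides plus APV (-0.30), Hist1h1c in NMP peptides against NMP peptides plus APV (-0.080), Hist3h2a in bicuculline against NMP peptides (0.00454), Hist1h1c in bicuculline against NMP peptides (0.080). Summing pairs, chosen after seeing the data, gave Hist2h3c2 in PK-cleaved NMP peptides against DMSO (-0.092), in NMP peptides against NMP peptides plus APV (-0.36) and in bicuculline against NMP peptides (0.46), and Hist2h2aa1 in NMP peptides against PK-cleaved NMP peptides (0.032). Leaving out 1 library gave 51 of the 69, over 28 differences whose lowest and highest values follow. In NMP peptides plus APV against DMSO these were Hist1h1c (-0.00775 to 0.29), Hist1h2bc (-0.095 to 0.33), Hist1h4i (-0.00210 to 0.52) and Hist2h3c2 (-0.48 to 0.089). In NMP peptides against NMP peptides plus APV these were Hist1h1c (-0.075 to 0.28), Hist1h4h (-0.24 to 0.20), Hist1h4i (-0.83 to 0.12), Hist2h3c2 (-0.087 to 0.24) and Hist3h2a (-0.24 to 0.036). In NMP peptides against PK-cleaved NMP peptides these were Hist1h1c (-0.19 to 0.16), Hist1h4h (-0.18 to 0.30), Hist2h2aa1 (-0.20 to 0.091) and Hist3h2a (-0.11 to 0.17). In bicuculline against DMSO these were Hist1h1c (-0.036 to 0.38), Hist1h2bc (-0.28 to 0.15), Hist1h4i (-0.30 to 0.40) and Hist3h2ba (-0.055 to 0.11). In bicuculline against NMP peptides these were Hist1h1c (-0.25 to 0.17), Hist1h2bc (-0.13 to 0.23), Hist1h4i (-0.35 to 0.60), Hist3h2a (-0.19 to 0.087) and Hist3h2ba (-0.012 to 0.15). In NMP peptides against DMSO these were Hist1h2bc (-0.29 to 0.13), Hist1h4i (-0.51 to 0.44), Hist2h3c2 (-0.40 to 0.16) and Hist3h2ba (-0.084 to 0.028). In PK-cleaved NMP peptides against DMSO these were Hist1h2bc (-0.046 to 0.38) and Hist2h3c2 (-0.025 to 0.54).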
